A study of Homo sapiens with 24 samples.

Results

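WM35 cells held in low oxygen, with no growth factor added, were compared on expression arrays with WM35 cells held at the oxygen level of room air. WM35 is a human cell line derived from an early primary melanoma. The comparison used 6 of the 24 arrays of the study, chosen by their titles: 3 arrays named hypoxia control (replicates A, B and C) and 3 named normoxia control (A, B and C). The hypoxia cells spent 24 h at 1% oxygen and the normoxia cells 24 h at 21% oxygen, in otherwise the same serum-containing medium, and no recombinant human IGF1 (insulin-like growth factor 1) was given to either group. All 9569 genes detected in the line were read, and none was preselected for its response. The study also held WM35 cells at the same oxygen levels with recombinant human IGF1 (100 ng/mL) for the last 6 h, 3 arrays per oxygen level. The remaining arrays came from Mel-624, another human melanoma line, given siRNAs that target the IGF1 receptor or non-targeting siRNAs (siControl), and then held for 3 days in hypoxia or in normoxia. The labels do not say at which oxygen percentage the Mel-624 cells were kept. Nor do they say whether replicates were separate cultures. The p-values therefore cover only the spread between these arrays, which may be technical.

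Cells sense oxygen mainly through the hypoxia-inducible factors (HIFs). Prolyl hydroxylases that need oxygen mark HIF alpha subunits for destruction by the VHL ubiquitin ligase, and when oxygen is short the alpha subunits accumulate, pair with a stable beta subunit and switch on genes whose regulatory DNA holds the letters ACGTG or GCGTG. Known targets move glucose use towards glycolysis, reduce oxygen use by mitochondria, recruit blood vessels and feed back on the sensors, and low oxygen is common in the skin and in growing melanomas.

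Every value below is a normalized signal on the log2 scale, read from the brightest detected probe of a gene, so that a difference of 1 corresponds to a 2-fold difference. Levels of different genes are read by different probes and were not set against each other. A change is the mean of the 3 hypoxia arrays minus the mean of the 3 normoxia arrays, and the number after ± is its standard error in a limma fit of the 12 WM35 arrays. A gene was called, and is said to have risen or fallen, where the Benjamini-Hochberg adjusted p over all 9569 genes was below 0.05. The number of arrays, 3 per group, limits the precision.

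Before normalization the mean signal of an array was 250.8, 261.8 and 263.7 in hypoxia, against 340.9, 334.4 and 317 in normoxia, so the hypoxia arrays were all dimmer. Between 14771 and 15275 of 47231 probes were detected per hypoxia array and between 15287 and 15987 per normoxia array. Changes are therefore relative to the overall signal of an array, and the part of the brightness gap in any of them was not tested. The arrays of a group sat next to each other on 1 chip, so position on the chip and oxygen cannot be told apart. Hypoxia array A and normoxia array C lay farthest from their groups along the main axis of spread within groups, which carried 31.3% of that spread. Of 10 melanocytic lineage markers, SOX10 and MITF were detected in WM35. PMEL, MLANA, TYR, TYRP1, S100B and GPR143 were detected on 0 of the 12 WM35 arrays, PAX3 on 1, and DCT had no named probe, so the pigment program that marks many melanoma cells was not measurable here. Most markers of other cell types were likewise absent: COL1A1, PTPRC, PECAM1, VWF, KRT5, KRT14 and EPCAM were detected on 0 arrays. Lists of 10 markers each for fibroblasts, epithelium, immune cells and endothelium had 10 tested members in all: 2 rose, among them CD68 of macrophages (0.69), and 2 fell, among them KDR of endothelium (-0.90), and their part in any result was not tested. In RNA from a whole culture, fewer cells of a kind and less RNA per cell cannot be told apart.

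Of the 9569 genes, 955 (9.98%) rose in hypoxia and 1026 (10.7%) fell. Both directions together came to 1981 genes (20.7%), and in 1955 of these the arrays of the 2 groups did not overlap, against 38% of all tested genes. Counts in any gene list below are to be read against 9.98% risen, 10.7% fallen and 20.7% called of all genes. Strong changes were mostly rises: 110 genes rose and 32 fell by 2-fold or more, and 16 rose and 2 fell by 4-fold or more. With a change of at least 1.5-fold asked for in addition, 738 genes (7.71%) were called, 422 higher and 316 lower. The median change was 0.55 among called rises, -0.49 among called falls and -0.03 over all tested genes. Of the rises, 50 were of genes with no probe detected on any normoxia array, and of the falls, 73 were of genes with none detected in hypoxia. Leaving out hypoxia array A together with normoxia array C left 705 rises and 633 falls. Where the brightness gap between the arrays was kept, with no normalization between them, the median change of all genes was -0.40, and 278 genes were called higher and 5306 lower (4.98% higher among the calls, against 48.2%). Under that scaling the medians of core hypoxia-inducible genes (0.98), glycolysis (0.35), glycogen (0.14), angiogenic factors (0.11) and collagen-modifying enzymes (0.02) stayed above 0, and those of all other pathway lists were below 0.

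**Figure D1:**
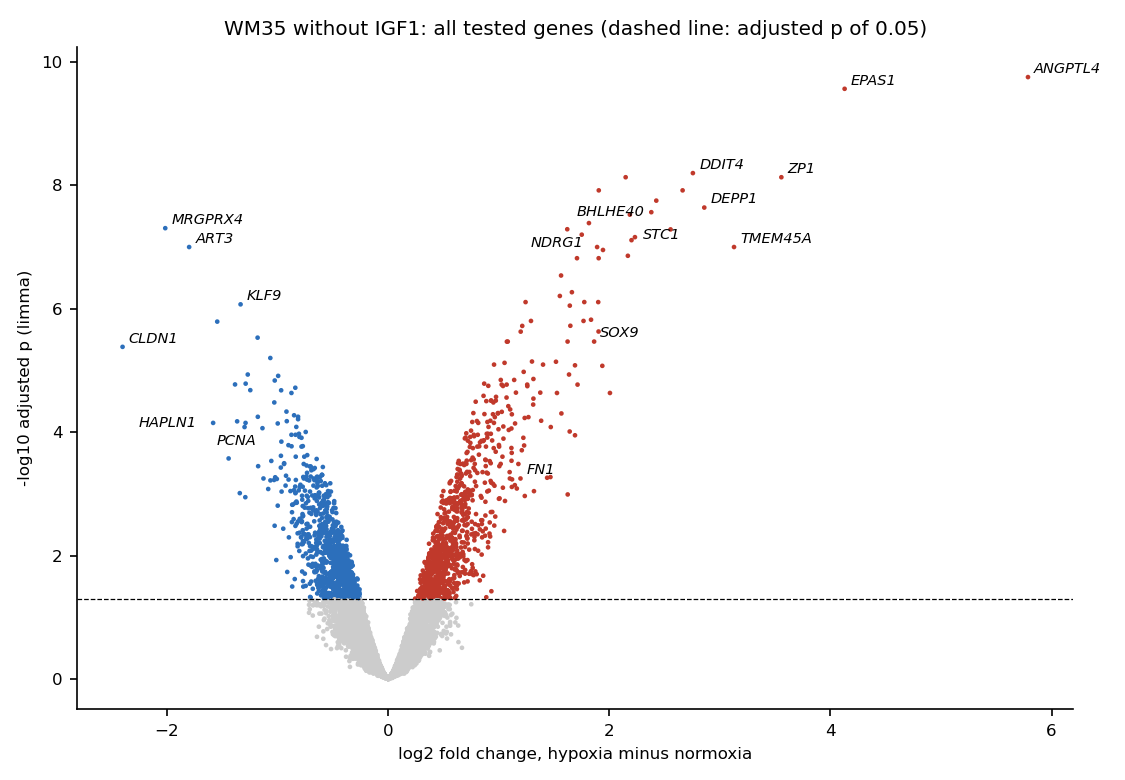
Each point is 1 of the 9569 genes tested in WM35 cells without IGF1. The x axis gives the log2 change, hypoxia minus normoxia, and the y axis minus log10 of the adjusted p of limma; red points rose, blue points fell, grey points were not called, and the dashed line marks an adjusted p of 0.05. ANGPTL4 (5.79) lies farthest to the right, and EPAS1 is drawn at a fitted value against a normoxia signal below detection. The right arm reaches farther than the left, which ends at CLDN1 (-2.40), detected on 1 of the 3 hypoxia arrays.

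ANGPTL4, a secreted inhibitor of lipoprotein lipase and a known HIF target, changed more than any other gene. Its signal was 11.72, 11.89 and 11.97 in hypoxia, against 6.09, 6.02 and 6.12 in normoxia. The groups lay far apart, with a change of 5.79 ± 0.16, or 55.2-fold (adjusted p = 1.75e-10). The 2 other detected ANGPTL4 probes also rose, by 2.58 and by 1.45, so the direction was shared and the size depended on the probe. ZP1, a glycoprotein known from the coat of the egg, had 9.17, 9.20 and 9.09 in hypoxia and 5.65, 5.61 and 5.54 in normoxia, a change of 3.56 ± 0.14 (adjusted p = 7.35e-09). The membrane protein gene TMEM45A stood at 9.122, 8.999 and 9.035 in hypoxia, against 6.19, 5.97 and 5.61 in normoxia (3.13 ± 0.18, adjusted p = 9.95e-08).

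The other large rises named by rank came from several kinds of gene. DEPP1, a FOXO-regulated gene linked to autophagy, changed by 2.86 ± 0.13 (adjusted p = 2.28e-08). The calcium release channel gene ITPR1, the receptor for inositol trisphosphate, changed by 2.66 ± 0.12 (adjusted p = 1.2e-08). WFDC3, of the WAP-domain protease inhibitor family, rose by 2.42, the poly(A) polymerase family gene TENT5A by 2.19 and ARG2, the mitochondrial arginase, by 2.15. Genes were named by rank only where the arrays of the 2 groups did not overlap, so their separation follows from that rule. RASSF4, which encodes a Ras-association domain protein, and UPK1A, a tetraspanin of the bladder lining, were not detected on any normoxia array. Their rises were at least 3.59-fold (adjusted p = 7.7e-08) and at least 3.31-fold (adjusted p = 1.38e-07).

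The largest fall was that of CLDN1, a tight junction claudin, with 4.49, 5.27 and 5.41 in hypoxia and 7.46, 7.39 and 7.53 in normoxia. Hypoxia array A lay lowest, the groups were separate, and the change was -2.40 ± 0.20 (adjusted p = 4.13e-06). CLDN1 was detected on 1 of the 3 hypoxia arrays, so this size is a fitted value against signal near background. MRGPRX4, a G protein-coupled receptor known from sensory neurons, fell by 2.02 (adjusted p = 4.92e-08). HAPLN1, which links hyaluronan to proteoglycans, and C4BPA, a regulator of complement, changed by -1.58 ± 0.18 and -1.54 ± 0.12 (adjusted p = 7.06e-05 and adjusted p = 1.61e-06). The signalling adaptor TRAF1 changed by -1.38 ± 0.13 (adjusted p = 1.68e-05), TRIM51 by -1.30 ± 0.15 (adjusted p = 8.24e-05) and ALPL, the tissue-nonspecific alkaline phosphatase, by -1.27 ± 0.12 (adjusted p = 1.16e-05). ART3, PLK2, CYP4B1 and DMRT2 were not detected on any hypoxia array. Of these, ART3, an ADP-ribosyltransferase family gene, was at least 2.3-fold lower (adjusted p = 9.95e-08) and PLK2, a polo-like kinase, at least 2.16-fold lower (adjusted p = 0.000266). The fall was at least 2.01-fold for CYP4B1, a cytochrome P450 (adjusted p = 0.000971), and at least 1.94-fold for DMRT2, a DM-domain transcription factor (adjusted p = 1.63e-05).

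Among HIF subunits and oxygen-sensing genes, 5 of 11 tested members rose and 0 fell. The largest of these rises by far was that of EPAS1, the only member above 1 on the log2 scale. EPAS1, which encodes HIF-2 alpha, had 8.74, 8.80 and 8.73 in hypoxia, against 4.69, 4.67 and 4.53 in normoxia. It was not detected on any normoxia array, so the rise was at least 11.1-fold (adjusted p = 2.71e-10). HIF1A encodes HIF-1 alpha and is known to be controlled mainly through protein stability. Its brightest probe had 4.97, 4.92 and 4.73 in hypoxia and 5.25, 5.17 and 5.95 in normoxia. The change did not pass the test (-0.59 ± 0.33, adjusted p = 0.223). This probe was detected on 0 hypoxia arrays and 1 normoxia array. Its values lie near background and cannot show whether HIF1A changed. Another HIF1A probe changed by 0.14, also without passing. EGLN1, the main prolyl hydroxylase acting on HIF, rose by 0.52 (adjusted p = 0.0259), though its adjusted p was 0.0579 to 0.0972 without hypoxia array A or B or normoxia array A or B. CITED2, a competitor of HIF for its coactivators, rose by 0.63 (adjusted p = 0.0106) and the ubiquitin ligase SIAH2, which targets prolyl hydroxylases, by 0.45 (adjusted p = 0.00918). VHL, which marks the alpha subunits for destruction, changed by -0.06 ± 0.18 (adjusted p = 0.84) and EGLN2, another hydroxylase, by -0.18 ± 0.12 (adjusted p = 0.287). ARNT, the beta subunit, was detected on 1 of 12 arrays and was not tested.

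Of 26 tested core hypoxia-inducible genes, 25 rose and 0 fell. Their median change was 1.44, against -0.03 over all genes, and the lowest of the list was PFKFB3, an enzyme that makes an activator of glycolysis, at 0.20 ± 0.13 (adjusted p = 0.299). The list was drawn up from genes known to respond to low oxygen, so its direction is not independent of that knowledge. DDIT4, an inhibitor of mTORC1, had 12.78, 12.86 and 12.88 in hypoxia and 9.97, 10.15 and 10.14 in normoxia. All hypoxia arrays lay far above all normoxia arrays, by 2.76 ± 0.11 (adjusted p = 6.3e-09). The transcriptional repressor BHLHE40 had 12.48, 12.58 and 12.46 in hypoxia and 10.01, 10.04 and 10.34 in normoxia, a change of 2.38 ± 0.11 (adjusted p = 2.71e-08). NDRG1, a stress-response gene long used as a marker of hypoxia, reached 12.62, 12.88 and 12.87 in hypoxia, against 11.03, 10.88 and 10.80 in normoxia. Its groups did not overlap, and the change was 1.89 ± 0.11 (adjusted p = 9.95e-08).

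Other core members also rose, by amounts past the spread between arrays. ANKRD37, a small ankyrin-repeat HIF target, changed by 1.90 ± 0.13 (adjusted p = 7.77e-07). INSIG2, which holds back sterol synthesis in the endoplasmic reticulum, changed by 1.83 ± 0.14 (adjusted p = 1.5e-06), and AK4, a mitochondrial adenylate kinase, by 1.77 ± 0.12 (adjusted p = 7.76e-07). VLDLR, a lipoprotein receptor, had 8.45, 8.57 and 8.49 in hypoxia, against 6.78, 6.76 and 7.04 in normoxia. Those groups were more than 1 log2 unit apart at their nearest arrays (1.64 ± 0.12, adjusted p = 8.87e-07). HILPDA, a lipid droplet protein, rose by 1.31 (adjusted p = 1.37e-05) and MXI1, a MYC antagonist, by 1.26 (adjusted p = 1.69e-05). CA9, EGLN3 and ERO1A had no named probe and were not analysed here.

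The promoters of strong core and glycolytic responders were searched for the HIF core letters, since these show how far the known binding core is present at genes that rose strongly. Sequences are RefSeq windows of 250 bases upstream of the annotated gene start, build GRCh38.p14, written from 5′ to 3′ on the strand of the gene. Capitals mark ACGTG or GCGTG on either strand (CACGT and CACGC are their reverse complements), and CACGTG holds ACGTG on both strands and is counted once on each. The 6 genes shown rose strongly among the core hypoxia-inducible and glycolytic genes that had a RefSeq window, though not all strong responders are shown. They are ANGPTL4 at chr19:8363905-8364154 on the plus strand, TMEM45A at chr3:100492369-100492618 on the plus strand, DDIT4 at chr10:72273674-72273923 on the plus strand, BHLHE40 at chr3:4979187-4979436 on the plus strand, ALDOC at chr17:28576896-28577145 on the minus strand and ANKRD37 at chr4:185396591-185396840 on the plus strand.
ANGPTL4: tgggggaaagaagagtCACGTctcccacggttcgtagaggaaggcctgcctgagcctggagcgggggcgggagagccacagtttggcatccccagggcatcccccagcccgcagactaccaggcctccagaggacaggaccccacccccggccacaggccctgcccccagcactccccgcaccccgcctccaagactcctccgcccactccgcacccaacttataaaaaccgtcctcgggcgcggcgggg
TMEM45A: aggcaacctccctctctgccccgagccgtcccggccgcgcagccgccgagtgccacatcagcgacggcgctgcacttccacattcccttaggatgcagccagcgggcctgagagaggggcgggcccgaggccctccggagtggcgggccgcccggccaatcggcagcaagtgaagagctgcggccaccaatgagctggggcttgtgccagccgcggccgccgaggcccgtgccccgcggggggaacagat
DDIT4: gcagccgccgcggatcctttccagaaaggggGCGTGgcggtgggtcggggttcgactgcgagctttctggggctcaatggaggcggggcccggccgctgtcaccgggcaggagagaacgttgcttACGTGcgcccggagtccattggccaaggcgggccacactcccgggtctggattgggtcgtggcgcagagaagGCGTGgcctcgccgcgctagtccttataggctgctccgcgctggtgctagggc
BHLHE40: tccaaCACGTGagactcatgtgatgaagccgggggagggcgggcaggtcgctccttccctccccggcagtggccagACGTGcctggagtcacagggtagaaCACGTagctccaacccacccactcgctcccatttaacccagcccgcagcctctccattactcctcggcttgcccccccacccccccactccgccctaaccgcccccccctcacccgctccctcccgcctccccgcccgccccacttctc
ALDOC: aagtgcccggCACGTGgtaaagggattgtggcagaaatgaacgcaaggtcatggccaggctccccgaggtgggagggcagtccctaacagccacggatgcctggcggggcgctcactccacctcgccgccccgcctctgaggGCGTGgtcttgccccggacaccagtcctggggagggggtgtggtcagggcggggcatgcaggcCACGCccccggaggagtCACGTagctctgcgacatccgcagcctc
ANKRD37: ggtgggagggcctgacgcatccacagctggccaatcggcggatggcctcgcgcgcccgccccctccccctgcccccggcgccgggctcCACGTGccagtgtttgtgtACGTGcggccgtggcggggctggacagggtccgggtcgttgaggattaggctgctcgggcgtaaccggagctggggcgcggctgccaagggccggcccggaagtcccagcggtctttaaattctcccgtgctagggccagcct
In these windows ANGPTL4 held 1 ACGTG and TMEM45A held neither motif. DDIT4 held 1 ACGTG and 2 GCGTG, and ALDOC held 3 ACGTG and 2 GCGTG. The BHLHE40 window held 4 ACGTG and that of ANKRD37 held 3, and in BHLHE40, ALDOC and ANKRD37 a pair of these came from 1 CACGTG.

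Over windows of 300 bases, 250 before and 50 after the start, which were found for 7813 of the 9569 tested genes, ACGTG was present on either strand in 28% of windows. It was present in 47.6% of the windows of called core genes (10 of 21) and in 42.9% of those of called glycolytic genes (6 of 14). Among all called rises the share was 29.3%, among rises of 2-fold or more 41.2% (35 of 85), and among called falls 25.7%. GCGTG was present in 51.2% of windows of tested genes, 49.9% of those of called rises and 54.7% of those of called falls. Its share was 57.1% for called core genes, 50% for called glycolytic genes and 47.1% for rises of 2-fold or more. Windows of replication genes called lower held ACGTG in 30% (6 of 20) and GCGTG in 60% (12 of 20). Over all 27305 RefSeq windows the shares were 21.6% for ACGTG and 36.3% for GCGTG. A match is a description of the letters in a window, and the match shares were given no test.

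Of 11 tested secreted factors that act on vessels, 7 rose and 2 fell, with a median of 0.52. VEGFA, the main vascular endothelial growth factor, had 7.94, 7.86 and 8.01 in hypoxia and 6.62, 6.66 and 6.75 in normoxia. The groups did not overlap (1.26 ± 0.12, adjusted p = 1.79e-05), and another VEGFA probe rose by 1.15. ADM, which encodes the vasodilator peptide adrenomedullin, had 12.21, 12.23 and 12.25 in hypoxia, against 10.65, 10.64 and 10.53 in normoxia, with very little spread in either group (1.62 ± 0.08, adjusted p = 5.12e-08). STC1, a secreted glycoprotein, had 10.74, 10.85 and 10.79 in hypoxia and 8.45, 8.46 and 8.79 in normoxia (2.23 ± 0.12, adjusted p = 6.88e-08). VEGFC, the lymphatic growth factor, rose by 0.52 (adjusted p = 0.00629). The 2 members that fell were THBS1, the angiogenesis inhibitor thrombospondin 1, by 0.95 (adjusted p = 0.00366), and FGF2, basic fibroblast growth factor, by 0.64 (adjusted p = 0.0411). The call of FGF2 was lost in 12 alternatives, at adjusted p of 0.0501 to 0.136, among them those without hypoxia array A (-0.34) and without any 1 of the normoxia arrays (-0.54 to -0.72).

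**Figure D2:**
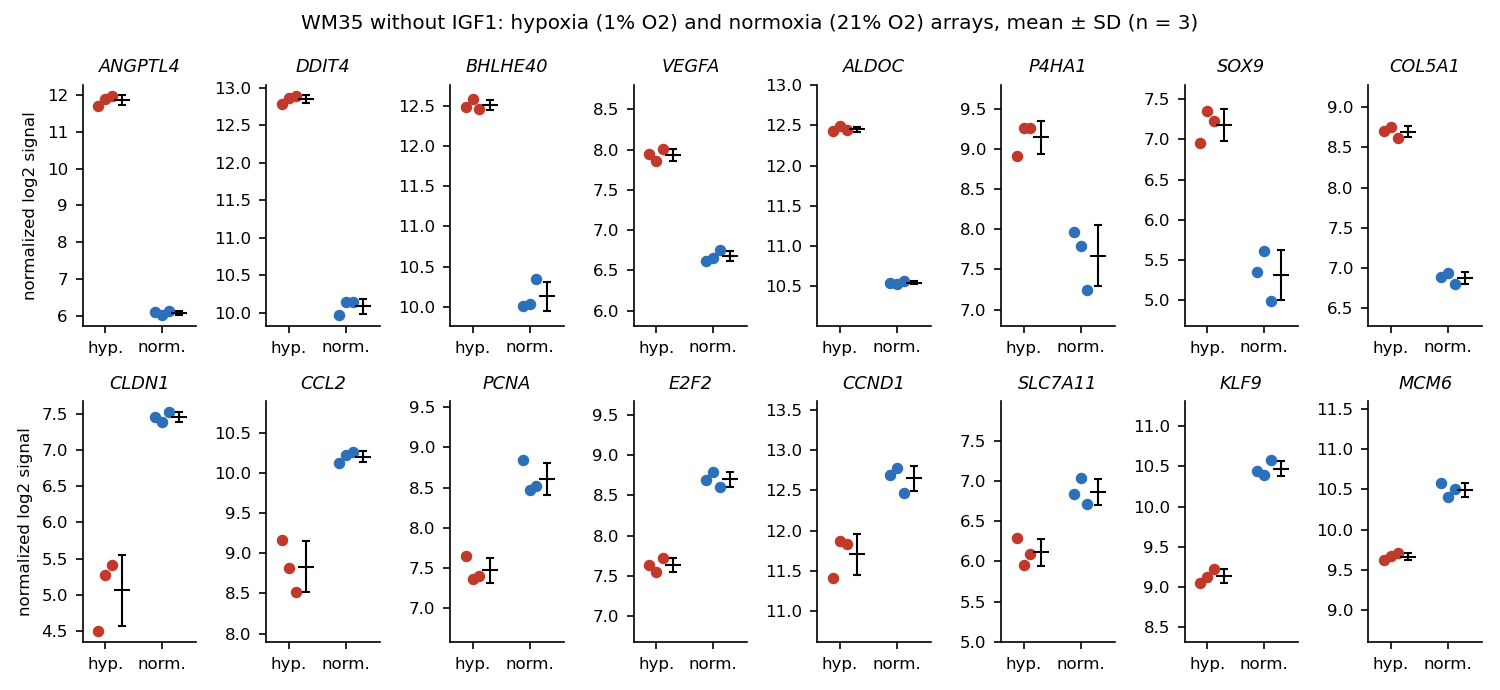
Normalized log2 signal of 16 genes, with 1 point per array, hypoxia (red, 3 arrays) left of normoxia (blue, 3 arrays) in each panel, and the mean with SD in black. Each panel has its own axis of at least 3 log2 units. In the upper row every hypoxia array lies above every normoxia array, from ANGPTL4 to COL5A1, and in the lower row every hypoxia array lies below, from CLDN1 to MCM6.

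Genes of glucose use rose at many steps of the pathway. Of 20 tested genes of glucose uptake and glycolysis, 14 rose and 0 fell, with a median of 0.71. SLC2A1, the glucose transporter GLUT1, had 11.45, 11.54 and 11.59 in hypoxia and 10.37, 10.60 and 10.53 in normoxia (1.03 ± 0.10, adjusted p = 1.69e-05). HK2, the hexokinase that traps glucose in the cell, had 10.45, 10.43 and 10.37 in hypoxia and 8.83, 8.86 and 8.90 in normoxia. These arrays barely varied within a group, and the change was 1.55 ± 0.10 (adjusted p = 6.18e-07). Another detected HK2 probe changed by 0.07 and did not pass (adjusted p = 0.851), so the rise rests on the brightest probe. ALDOC, the aldolase isoform typical of brain, had 12.43, 12.49 and 12.44 in hypoxia, against 10.54, 10.53 and 10.57 in normoxia (1.91 ± 0.08, adjusted p = 1.2e-08). ENO2, the neuronal enolase, changed by 1.64 ± 0.15 (adjusted p = 1.16e-05) and PFKFB4, which sets the level of a glycolytic activator, by 1.65 ± 0.12 (adjusted p = 1.88e-06).

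Between these steps GPI, the glucose phosphate isomerase, rose by 1.04 (adjusted p = 1.78e-05), PFKL, the liver-type phosphofructokinase, by 0.81 (adjusted p = 0.00011) and PGK1, phosphoglycerate kinase, by 0.95 (adjusted p = 0.000687). The main enolase ENO1 did not pass, at -0.01 ± 0.11 (adjusted p = 0.955), nor did LDHA, the lactate dehydrogenase subunit that favours lactate, at 0.28 ± 0.10 (adjusted p = 0.051). Its signal was 14.21, 14.14 and 14.05 in hypoxia and 13.73, 13.81 and 14.01 in normoxia, close together but without overlap. The 2 detected GAPDH probes disagreed: the brightest changed by 0.13 ± 0.11 (adjusted p = 0.427) and the other rose by 0.59 (adjusted p = 0.00816).

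Glycogen genes moved in both directions, with 6 of 10 up and 2 down. GBE1, the branching enzyme, had 9.86, 9.60 and 9.52 in hypoxia and 8.40, 8.49 and 8.65 in normoxia (1.15 ± 0.13, adjusted p = 7.21e-05). GYS1, glycogen synthase, had 7.14, 6.99 and 7.32 in hypoxia and 6.30, 5.89 and 5.91 in normoxia (1.11 ± 0.14, adjusted p = 0.00018). Both groups of arrays were separate in each case. UGP2 and PGM1, which supply the sugar nucleotide, rose by 0.93 (adjusted p = 0.000616) and 0.87 (adjusted p = 5.08e-05), and the liver-type phosphorylase PYGL rose by 0.51 (adjusted p = 0.00247). Of the members that fell, the primer protein GYG1 fell by 0.39 (adjusted p = 0.00997).

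Among genes that control pyruvate dehydrogenase, the entry of pyruvate into the mitochondrial cycle, 1 of 10 rose and 4 fell. The riser was PDK3, a kinase that switches the complex off, with 9.02, 9.71 and 9.57 in hypoxia and 8.31, 8.18 and 8.15 in normoxia (1.22 ± 0.15, adjusted p = 0.000123). Hypoxia array A lay below the other hypoxia arrays but above all normoxia arrays, and another PDK3 probe changed by 0.45 and did not pass (adjusted p = 0.0515). PDHX, a structural subunit of the complex, fell by 0.71 (adjusted p = 0.00701), MPC1, a subunit of the mitochondrial pyruvate carrier, by 0.56 (adjusted p = 0.00497; another probe, at -0.19, did not pass), and the catalytic subunit DLAT by 0.53 (adjusted p = 0.00948). The list had 1 fall without hypoxia array A and normoxia array C. PDK1, the kinase best known as a HIF target, was not detected on any of the 12 arrays.

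Few genes of respiration itself passed the test. In the tricarboxylic acid cycle 0 of 14 rose and 2 fell. SDHD, a subunit of succinate dehydrogenase, fell by 0.58 (adjusted p = 0.0127), with an adjusted p of 0.0585 without hypoxia array B. Among 31 tested subunits of complex I 0 rose and 2 fell, with a median of -0.02, and among 15 tested ATP synthase subunits 0 rose and 0 fell. Subunits of complexes III and IV gave 1 rise and 1 fall of 18. The share called in each of these lists lay below the 20.7% of all genes. Receptors for the removal of mitochondria rose: BNIP3 had 12.68, 12.54 and 12.63 in hypoxia and 11.36, 11.50 and 11.64 in normoxia (1.11 ± 0.13, adjusted p = 8.7e-05). Its relative BNIP3L, also a receptor that marks mitochondria for autophagy, had 9.75, 10.18 and 10.28 in hypoxia and 8.60, 8.69 and 8.72 in normoxia (1.40 ± 0.12, adjusted p = 8.01e-06). Over all 18 mitophagy and autophagy genes, 5 rose and 1 fell.

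Enzymes that modify collagen were among the responders, and several of them use oxygen as a substrate. Of 12 tested, 7 rose and 1 fell, with a median of 0.43. P4HA1, the catalytic subunit of collagen prolyl hydroxylase, had 8.91, 9.26 and 9.26 in hypoxia and 7.97, 7.79 and 7.25 in normoxia. Normoxia array C was the lowest, and the groups did not overlap (1.47 ± 0.17, adjusted p = 8.24e-05). Its isoform P4HA2 had 10.93, 10.99 and 11.12 in hypoxia, against 9.40, 9.31 and 9.21 in normoxia (1.71 ± 0.10, adjusted p = 1.51e-07). The lysyl hydroxylases PLOD2 and PLOD1, which prepare collagen for cross-linking, rose by 1.23 (adjusted p = 1.05e-05) and 0.88 (adjusted p = 0.000278). LOXL3, a lysyl oxidase, rose by 0.91 (adjusted p = 1.77e-05), and the fall was that of its relative LOXL4, by 0.42 (adjusted p = 0.014). Without normoxia array A or B the adjusted p of LOXL4 was 0.0565 or 0.0589.

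Collagen, laminin and integrin genes were mixed, with 7 of 23 up and 2 down. COL5A1, a chain of fibril-forming collagen V, had 8.71, 8.76 and 8.62 in hypoxia, against 6.89, 6.95 and 6.80 in normoxia. The groups were separate by well over 1 log2 unit (1.82 ± 0.09, adjusted p = 4.07e-08). ITGB3, the beta 3 integrin known from invasive melanoma, rose by 1.02 (adjusted p = 0.000326), the laminin chain LAMA5 by 0.90 (adjusted p = 0.000122) and the collagen VI chain COL6A3 by 0.67 (adjusted p = 0.000701). When hypoxia array A and normoxia array C were left out, 4 rises and 1 fall were called in this list.

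Oxygen-dependent histone demethylases, which remove methyl groups from histone lysines, had 6 rises and 1 fall among 16 tested. KDM4B had 7.14, 6.59 and 6.57 in hypoxia and 5.64, 5.73 and 5.57 in normoxia (1.12 ± 0.15, adjusted p = 0.000216). Its hypoxia array A was the highest, and all 3 lay above normoxia. KDM3A, a known HIF target, rose by 0.76 (adjusted p = 0.00368), KDM5B by 0.79 (adjusted p = 0.000414) and KDM6B, which acts on the Polycomb mark, by 0.90 (adjusted p = 0.00606). A list of histone genes that also held SLBP, itself not a histone gene, gave 5 rises and 2 falls among 12. The falls were those of SLBP (-0.57, adjusted p = 0.0451) and H3-3B (-0.36, adjusted p = 0.0138). The largest change was that of H2BC5, at 8.07, 7.96 and 7.92 in hypoxia and 6.07, 6.09 and 5.97 in normoxia (1.94 ± 0.11, adjusted p = 1.11e-07). Histone genes are near-identical copies, so which copy a probe reads is uncertain.

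Of 20 genes of lipid droplets and fatty acids 7 rose and 3 fell. Beside HILPDA, the desaturase gene SCD rose by 0.57 (adjusted p = 0.000616), the droplet coat gene PLIN2 by 0.47 (adjusted p = 0.00472) and LPIN1, a phosphatidate phosphatase, by 0.48 (adjusted p = 0.00252). FASN, fatty acid synthase, had 11.13, 10.99 and 11.15 in hypoxia, against 11.68, 11.82 and 11.74 in normoxia. The groups did not overlap, and it fell by 0.66 (adjusted p = 0.00113). Cholesterol genes gave 3 rises and 3 falls of 18.

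Some regulators that hold back growth rose. The list of mTORC1 and growth-restraint genes had 5 rises and 0 falls among 18 tested, against 9.98% and 10.7% of all genes. With no normalization between arrays it had 3 rises and 4 falls, where 278 of all 9569 genes were called higher and 5306 lower. ARRDC3, an alpha-arrestin, had 7.25, 6.80 and 6.86 in hypoxia and 5.40, 5.24 and 5.86 in normoxia (1.47 ± 0.22, adjusted p = 0.000533). TXNIP, the alpha-arrestin that limits glucose uptake, had 10.74, 10.82 and 10.72 in hypoxia and 9.73, 9.92 and 9.91 in normoxia (0.91 ± 0.11, adjusted p = 8.2e-05). The groups were separate for both. The Yippee-like genes YPEL3 and YPEL5 rose by 0.70 (adjusted p = 0.00213) and 0.63 (adjusted p = 0.00113). In the MYC network, the antagonists MXI1, MNT (0.64, adjusted p = 0.000291) and MXD4 (0.59, adjusted p = 0.00634) rose among 9 tested members, and 0 fell. The antagonists MXD1 (0.019, adjusted p = 0.92) and MXD3 (-0.165, adjusted p = 0.256) did not pass, nor did MYC itself (0.415, adjusted p = 0.0602).

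SPRY1, a feedback inhibitor of receptor tyrosine kinase signalling to ERK, had 8.97, 8.68 and 8.72 in hypoxia and 6.05, 6.26 and 6.40 in normoxia. The groups lay more than 2 log2 units apart (2.55 ± 0.13, adjusted p = 5.15e-08), and another SPRY1 probe rose by 2.49. DUSP1, a phosphatase that shuts off MAP kinases, rose by 1.10 (adjusted p = 4.27e-05), and over 21 early and ERK feedback genes 4 rose and 1 fell. In the IGF axis 3 of 9 rose and 0 fell. All 3 were IGF binding proteins, and the binding proteins IGFBP4 (0.19 ± 0.13, adjusted p = 0.31) and IGFBP7 (0.04 ± 0.15, adjusted p = 0.88) did not pass. IGFBP6 had 12.38, 12.43 and 12.40 in hypoxia and 11.65, 11.52 and 11.39 in normoxia (0.89 ± 0.09, adjusted p = 3.13e-05). IGFBP2 rose by 0.82 (adjusted p = 0.000231) and IGFBP3 by 0.57 (adjusted p = 0.00459). The list also counted 3 rises without hypoxia array A and normoxia array C.

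Of 13 tested clock genes, 5 rose and 2 fell. BHLHE40 is one of the repressors of the clock, RORA, a nuclear receptor that drives it, rose by 1.03 (adjusted p = 0.000249), NFIL3, a repressor of its output genes, by 0.79 (adjusted p = 0.00308) and PER2, a core repressor, by 0.68 (adjusted p = 0.00948). CLOCK, a subunit of the central activator, had 6.77, 6.89 and 6.87 in hypoxia and 7.28, 7.30 and 7.73 in normoxia. On this probe the groups were separate and the change was -0.59 ± 0.12 (adjusted p = 0.00311), whereas the other detected CLOCK probe changed in the opposite direction, by 0.41, without passing (adjusted p = 0.111). The list held 3 rises and 1 fall without hypoxia array A and normoxia array C.

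**Figure D3:**
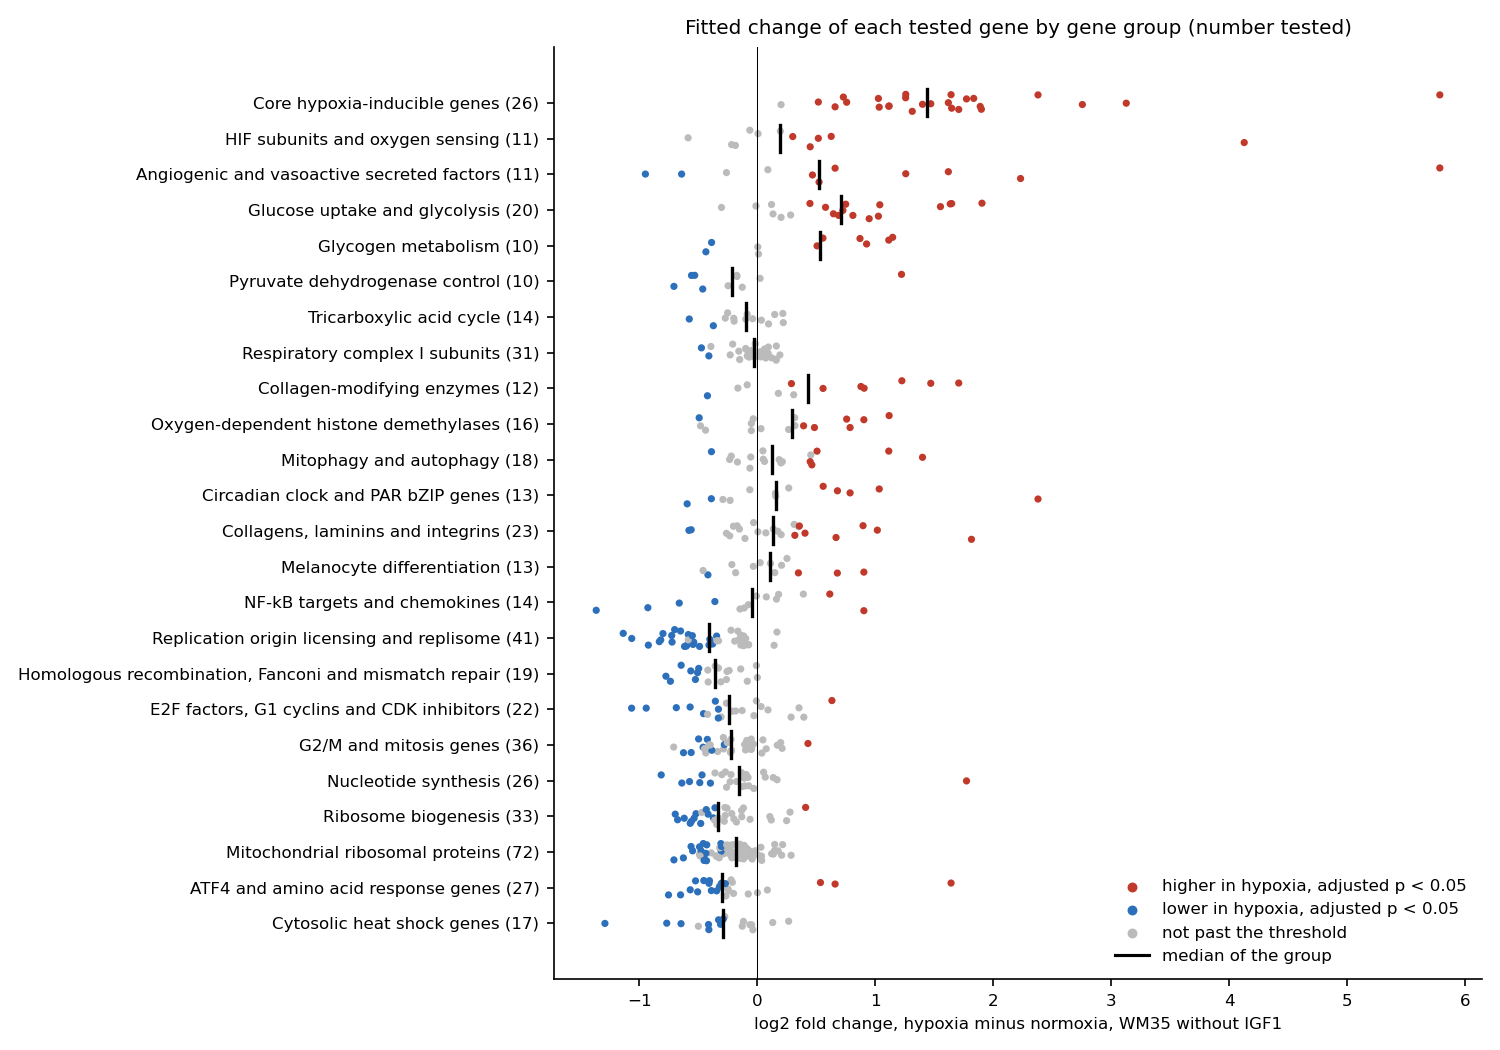
Fitted log2 change, hypoxia minus normoxia, of every tested gene in 24 gene lists, 1 point per gene, with the number tested in parentheses and the median of the list as a black bar. Red points rose, blue points fell and grey points were not called. Core hypoxia-inducible genes (median 1.44) and glycolysis (0.71) lie to the right, replication genes (-0.41) to the left, and complex I subunits cluster around 0.

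Among the gene lists, DNA replication held the most falls. Of 41 tested genes that license origins or form the replisome, 23 fell and 0 rose, with a median of -0.41, against -0.03 over all genes. The share called lower, read against 10.7% of all genes, is a description and was given no test. Several MCM genes of the replicative helicase fell. MCM6 had 9.62, 9.67 and 9.71 in hypoxia and 10.58, 10.41 and 10.50 in normoxia (-0.83 ± 0.10, adjusted p = 8.2e-05), and MCM4, MCM5 and MCM7 also fell, by 0.41 to 0.72, as did MCM10, a factor that helps to activate the helicase, by 0.80 (adjusted p = 0.000771). The helicase subunit MCM2 changed by -0.14 ± 0.11 and did not pass (adjusted p = 0.393), and neither did the other probes of MCM4 and MCM7, at -0.45 and -0.37. CHAF1A, which deposits histones on new DNA, had 6.43, 6.33 and 6.66 in hypoxia and 7.67, 7.24 and 7.28 in normoxia (-0.92 ± 0.14, adjusted p = 0.000507). For MCM6 and CHAF1A all hypoxia arrays lay below all normoxia arrays. TIPIN, which stabilizes the replication fork, changed by -1.06 ± 0.16 (adjusted p = 0.000604) and CDC45, of the active helicase, by -0.62 ± 0.09 (adjusted p = 0.000533).

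PCNA, the sliding clamp of the polymerases, had 7.66, 7.37 and 7.40 in hypoxia, against 8.84, 8.47 and 8.52 in normoxia on its brightest probe. That was a fall of 1.14 (adjusted p = 8.6e-05), while another PCNA probe changed by -0.30 and did not pass (adjusted p = 0.584). Without hypoxia array A and normoxia array C, 17 of the replication genes were called lower. In homologous recombination, Fanconi and mismatch repair 7 of 19 fell and 0 rose. FANCI fell by 0.77 (adjusted p = 0.00212), FANCB, of the Fanconi core complex, by 0.74 (adjusted p = 0.00107), the mismatch recognition gene MSH6 by 0.52 (adjusted p = 0.00604) and EXO1, a repair exonuclease, by 0.51 (adjusted p = 0.00184). Nucleotide synthesis gave 6 falls and 1 rise of 26. CTPS1, which makes CTP, had 9.07, 9.07 and 9.27 in hypoxia and 9.98, 9.98 and 9.89 in normoxia (-0.81 ± 0.09, adjusted p = 6.15e-05). PRPS1, which makes the ribose donor, fell by 0.64 (adjusted p = 0.000673). The riser of that list was AK4, described above.

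Upstream of replication, 8 of 22 E2F factors, G1 cyclins and CDK inhibitors fell and 1 rose. E2F2, an activator of S-phase genes, had 7.64, 7.55 and 7.72 in hypoxia and 8.69, 8.80 and 8.61 in normoxia (-1.06 ± 0.09, adjusted p = 6.26e-06). CCND1, cyclin D1, had 11.41, 11.87 and 11.84 in hypoxia and 12.69, 12.78 and 12.47 in normoxia (-0.94 ± 0.13, adjusted p = 0.000327). Hypoxia array A was the lowest for CCND1, and neither gene's groups overlapped. CCND3, cyclin D3, fell by 0.57 (adjusted p = 0.000696), CDC25A, the phosphatase that activates CDK2, by 0.69 (adjusted p = 0.00106) and CCNE1, cyclin E1, by 0.46 (adjusted p = 0.00748). CDKN2D, an inhibitor of CDK4 and CDK6, rose by 0.63 (adjusted p = 0.000317). In this list 5 genes were called lower without hypoxia array A and normoxia array C.

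Mitotic genes moved less. Of 36 tested, 7 fell and 1 rose, with a median of -0.23. CCNB1, cyclin B1, had 7.44, 7.15 and 7.19 in hypoxia and 7.95, 8.09 and 7.61 in normoxia (-0.62 ± 0.13, adjusted p = 0.00455), and CDC20, an activator of the anaphase-promoting complex, fell by 0.56 (adjusted p = 0.0033). The share of mitotic genes called lower is above that of all genes. Without hypoxia array A and normoxia array C the list had 4 falls, where 633 of all 9569 genes fell.

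In ribosome biogenesis 12 of 33 genes fell, against 10.7% of all genes, and 1 rose, with a median of -0.33. RRS1, an assembly factor of the large subunit, had 9.45, 9.11 and 9.21 in hypoxia and 9.87, 9.88 and 10.05 in normoxia (-0.68 ± 0.10, adjusted p = 0.000733). NOLC1, a nucleolar phosphoprotein, fell by 0.62 (adjusted p = 0.00269), NOP16 by 0.57 (adjusted p = 0.00282) and NOP56, of the snoRNA methylation complex, by 0.54 (adjusted p = 0.0014). Mitochondrial ribosomal protein genes gave 15 falls and 0 rises of 72, with 57 not called, the largest of them that of MRPL1, at -0.71 (adjusted p = 0.00501). Without hypoxia array A and normoxia array C, 7 ribosome biogenesis genes and 12 mitochondrial ribosomal genes were called lower.

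Of 27 tested genes of the amino acid response, made up of the transcription factor ATF4 and genes it is known to switch on, 13 fell and 3 rose, with a median of -0.30. ATF4 had 11.15, 11.08 and 11.03 in hypoxia and 11.55, 11.56 and 11.37 in normoxia (-0.41 ± 0.09, adjusted p = 0.00748). ASNS, asparagine synthetase, had 10.65, 10.74 and 10.68 in hypoxia and 11.19, 11.24 and 11.21 in normoxia (-0.52 ± 0.08, adjusted p = 0.000673). Neither gene's groups overlapped. Another ATF4 probe also fell, at -0.59 (adjusted p = 0.0216), while a further ATF4 probe, at -0.15, did not pass. The other ASNS probe, at -0.36, did not pass either. SLC7A11, the cystine transporter, fell by 0.75 (adjusted p = 0.000884), SLC3A2, the partner chain of several amino acid transporters, by 0.51 (adjusted p = 0.00366; another probe, at -0.31, did not pass), and the tRNA synthetase gene GARS1 by 0.45 (adjusted p = 0.00829). The 3 risers were VLDLR, STC2, a secreted stanniocalcin, at 0.66 (adjusted p = 0.00103), and DDIT3, which encodes the stress factor CHOP, at 0.54 (adjusted p = 0.0102). Without hypoxia array A and normoxia array C, 6 falls were called in this list, so the count depends on those arrays.

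Chaperone genes of the cytosol fell in 8 of 17 cases, and 0 rose. HSP90AA1, the inducible HSP90, had 12.29, 12.54 and 12.64 in hypoxia and 13.20, 13.23 and 13.34 in normoxia (-0.77 ± 0.11, adjusted p = 0.000531). HSPA1A had 5.60, 6.55 and 6.34 in hypoxia, against 7.35, 7.73 and 7.27 in normoxia (-1.29 ± 0.21, adjusted p = 0.00113), and HSPA1B fell by 0.65 (adjusted p = 0.000271). These last genes encode the same HSP70 protein and are near-identical, so the assignment of their probes is uncertain. HSPB3, a small heat shock protein gene known from muscle, fell by 1.29 (adjusted p = 7.06e-05). The list had 3 falls without hypoxia array A and normoxia array C. In the endoplasmic reticulum SDF2L1, a chaperone cofactor, fell by 0.97 (adjusted p = 0.000241), within a list of 16 that gave 3 falls and 1 rise.

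Of the genes that describe melanoma cell state, few pigment genes could be read. Among 13 tested melanocyte differentiation genes 3 rose and 1 fell. SOX10, the lineage transcription factor, had 11.35, 11.32 and 11.32 in hypoxia and 11.79, 11.70 and 11.75 in normoxia. The arrays hardly varied within a group, and the fall was 0.42 (adjusted p = 0.00406). MITF, the master regulator of pigment cells, changed by -0.21 ± 0.19 (adjusted p = 0.461) and did not pass. MLPH, which carries melanosomes, rose by 0.68 (adjusted p = 0.00218), and OCA2, a melanosome channel, was undetected in normoxia and at least 1.53-fold higher in hypoxia (adjusted p = 0.000106).

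Invasive and mesenchymal genes gave 4 rises and 3 falls of 19. SOX9, a transcription factor often opposed to SOX10 in melanoma, had 6.96, 7.35 and 7.23 in hypoxia and 5.34, 5.61 and 4.99 in normoxia. Its groups lay more than 1 log2 unit apart (1.86 ± 0.15, adjusted p = 3.39e-06). FN1, fibronectin, had 6.80, 6.93 and 6.82 in hypoxia and 5.95, 5.16 and 5.84 in normoxia (1.20 ± 0.18, adjusted p = 0.000562), and the AP-1 factor JUN rose by 0.74 (adjusted p = 0.000149). The members that fell were the matricellular genes CCN1, CCN2 and THBS1. CCN1 had 9.43, 9.14 and 9.17 in hypoxia, against 10.09, 10.23 and 10.41 in normoxia (-0.998 ± 0.11, adjusted p = 7.21e-05), and CCN2 fell by 0.96 (adjusted p = 0.000142). Without hypoxia array A and normoxia array C the list again counted 4 rises and 3 falls.

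Among 14 NF-kB targets and chemokines 4 fell and 2 rose. CCL2, which attracts monocytes, had 9.17, 8.81 and 8.52 in hypoxia and 10.12, 10.22 and 10.26 in normoxia. The normoxia arrays were tight, the hypoxia arrays spread over more than 0.5 log2 units, and the groups did not overlap (-1.36 ± 0.15, adjusted p = 6.66e-05). CXCL8, the neutrophil attractant interleukin 8, had 12.16, 12.03 and 11.95 in hypoxia and 12.91, 12.87 and 13.14 in normoxia (-0.93 ± 0.14, adjusted p = 0.000733). IL1B, interleukin 1 beta, fell by 0.66 (adjusted p = 0.00105). The members that rose were the adhesion receptor ICAM1, by 0.90 (adjusted p = 0.00734), and the cytokine LIF, by 0.61 (adjusted p = 0.00639). Of 22 p53 targets and BCL2 family genes 1 rose and 0 fell. KLF9, a Kruppel-like factor that responds to glucocorticoids, had 9.05, 9.12 and 9.23 in hypoxia and 10.44, 10.40 and 10.58 in normoxia (-1.33 ± 0.09, adjusted p = 8.45e-07), while its relative KLF13 rose by 0.89 (adjusted p = 0.000106).

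The same oxygen contrast was measured in WM35 cells given IGF1 for the last 6 h. There 784 genes rose (8.19%) and 704 fell (7.36%), together 15.6%. Of the 955 genes that rose without IGF1, 551 (57.7%) also rose with it, and of the 1026 that fell, 405 (39.5%) also fell. These shared genes made up 70.3% of the rises with IGF1 and 57.5% of the falls. The 2 responses differed by test in 5 genes (0.0523%), against 823 at an unadjusted p below 0.05. That small count does not show that the responses were alike. Before normalization the mean signal averaged 255.7 in hypoxia and 259.7 in normoxia with IGF1, against 258.8 in hypoxia and 330.8 in normoxia without it. The 2 contrasts therefore differ in their brightness gap as well as in IGF1. The part of that gap in the differences between them was not tested.

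SPRY1 had the largest of these 5 differences. With IGF1 it had 8.60, 8.55 and 8.98 in hypoxia and 7.63, 7.49 and 7.63 in normoxia, a change of 1.12 ± 0.13, against 2.55 ± 0.13 without IGF1. Its hypoxia levels overlapped between cells with and without IGF1, and its normoxia levels were higher with IGF1 on every array. The difference, with IGF1 minus without, was -1.43 ± 0.19 (adjusted p = 0.0261). P2RY11, a purinergic receptor, changed by 0.02 ± 0.10 with IGF1 and by 0.97 ± 0.10 without (difference -0.95 ± 0.14, adjusted p = 0.0289). REEP4, which shapes the endoplasmic reticulum in mitosis, changed by -0.63 ± 0.12 with IGF1 and by 0.58 ± 0.12 without (difference -1.21 ± 0.17, adjusted p = 0.0261). SNHG7, a snoRNA host gene, changed by -1.09 ± 0.12 with IGF1, whereas without it the change of 0.12 ± 0.12 did not pass (difference -1.21 ± 0.17, adjusted p = 0.0261). FST, the activin antagonist follistatin, changed by 0.31 ± 0.09 with IGF1 and by -0.54 ± 0.09 without (difference 0.85 ± 0.12, adjusted p = 0.0261). Leaving out single arrays moved the number of such genes between 0 and 8, and leaving out any 1 of the normoxia arrays, with or without IGF1, or hypoxia IGF1 array A or B, brought it to 0.

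The gene lists were counted in the same way with IGF1, where the brightness gap between the oxygen levels was far smaller. Of the 26 core hypoxia-inducible genes 23 rose with IGF1, at a median of 1.29, and of 20 glycolytic genes 13 rose, at 0.56. Of 41 replication genes 9 fell with IGF1 and 23 without, at medians of -0.18 and -0.41, and 0 of the 41 passed the test of the difference. Of 36 mitotic genes 13 fell with IGF1 and 7 without, and 0 passed the test of the difference. Among the 27 genes of the ATF4 list 2 fell and 4 rose with IGF1, at a median of 0.14, against 13 and 3 without, at -0.30. Again 0 of 27 passed the test of the difference. ASNS changed by 0.11 with IGF1 and -0.52 without (difference 0.63 ± 0.11, adjusted p = 0.104). DDIT4 rose in both settings, by 1.91 with IGF1 and 2.76 without (difference -0.84 ± 0.15, adjusted p = 0.104).

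**Figure D4:**
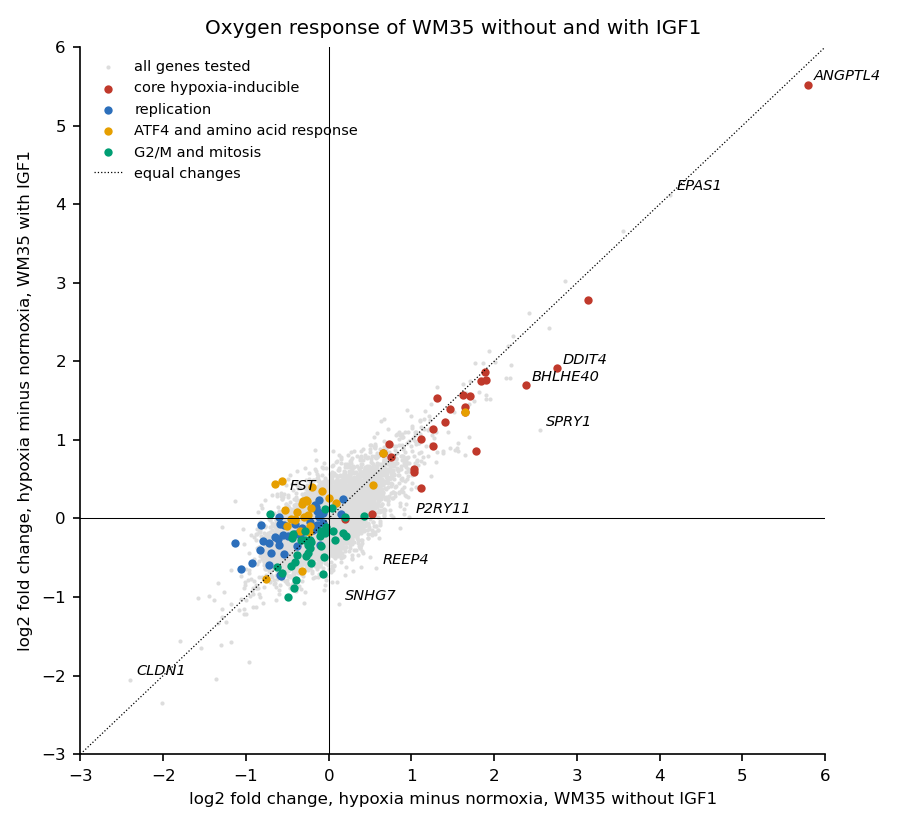
Log2 change from oxygen, hypoxia minus normoxia, with IGF1 (y axis) against the same change without IGF1 (x axis), 1 grey point per gene, with 4 gene lists in colour and equal changes on the dotted line. ANGPTL4 (5.52 with IGF1, 5.79 without) lies near the line, SPRY1 (1.12 and 2.55) lies below it, and FST (0.31 and -0.54) lies above it.

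Mel-624 siControl cells gave the oxygen response of another melanoma line, after 3 days and a transfection, so line, time and handling differ at once and the difference between lines was not tested. In Mel-624 4793 of 9292 genes were called (51.6%), 2154 higher in hypoxia (23.2%) and 2639 lower (28.4%). Of the 8391 genes tested in both lines, 799 rose in WM35. Of these, 366 also rose in Mel-624 (45.8%, or 19.8% of the Mel-624 rises) and 106 fell. Of 898 that fell in WM35, 462 also fell in Mel-624 (51.4%, or 18.4% of the Mel-624 falls) and 100 rose.

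Of 24 core hypoxia-inducible genes tested in Mel-624, 22 rose. BNIP3 changed by 1.11 in WM35 and 1.91 in Mel-624, NDRG1 by 1.89 in WM35 and 1.58 in Mel-624, and STC1 by 2.23 in WM35 and 2.66 in Mel-624. The genes that led in WM35 did not lead there: ANGPTL4 changed by 0.13 ± 0.20 in Mel-624 and did not pass (adjusted p = 0.624), and EPAS1 rose by 0.67 (adjusted p = 5.15e-05). SPRY1 and ARG2 did not pass either, at -0.06 (adjusted p = 0.588) and -0.08 (adjusted p = 0.606). Of 41 replication genes 36 fell in Mel-624, with PCNA at -2.10 and E2F2, of the G1 list, at -3.91. Of the 36 mitotic genes 1 rose and 7 fell in WM35, against 13 rises and 3 falls in Mel-624. CXCL8 and THBS1, which fell in WM35, rose in Mel-624 by 0.71 (adjusted p = 0.0011) and 0.80 (adjusted p = 0.00129), and CCN1, which also fell in WM35, rose by 3.02 (adjusted p = 4.48e-09).

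**Figure D5:**
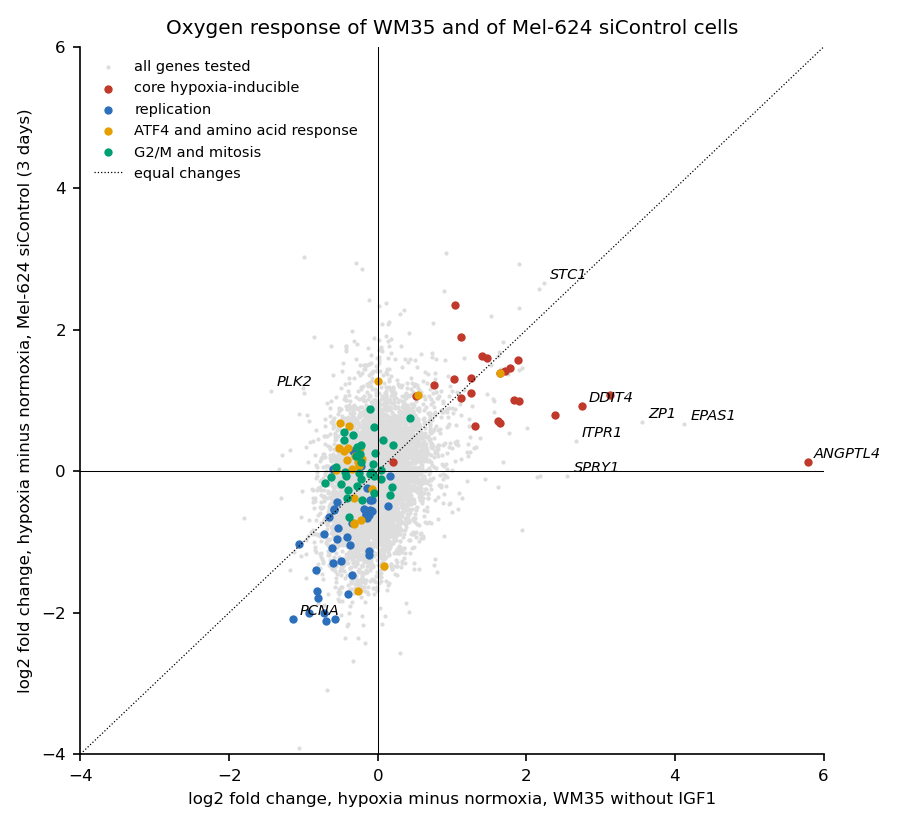
Log2 change from oxygen, hypoxia minus normoxia, in Mel-624 siControl cells after 3 days (y axis) against WM35 cells without IGF1 after 24 h (x axis), 1 grey point per gene tested in both lines, with 4 gene lists in colour and equal changes on the dotted line. ANGPTL4 (5.79 in WM35, 0.13 in Mel-624) lies at the right edge near 0 on the y axis, STC1 (2.23 in WM35, 2.66 in Mel-624) is high in both, and replication genes, with PCNA at -1.14 in WM35 and -2.10 in Mel-624, lie low on the y axis.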

How the data were processed

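Bead arrays of 12 WM35 and 12 Mel-624 samples were used, 3 per group, grouped by their titles. Per the file headers, the deposited non-normalized table held a signal intensity and a detection p-value per probe. Per the submitters' processing notes, GenomeStudio made them, in a version not given in the sources used here. The deposited normalized intensities, on a linear scale, covered 38221 of 47231 probes and correlated with the values used here at r of 0.9955 to 0.9979 per WM35 array. How the authors normalized them is not stated, and they served as an alternative only.

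Intensities of the 12 WM35 arrays were background-corrected from the detection p-values, quantile normalized and log2 transformed with neqc (limma 3.58.1, R 4.3.3, offset 16). Mel-624 was normalized apart. Of all probes, 27003 carry 1 gene symbol in the platform annotation, updated by gene identifier for 26969, 4 carry several and 20224 none; probes without a single symbol were not named. Probes with a detection p-value below 0.01 on at least 3 of 12 arrays were kept, and the brightest stood for its gene, which gave 9569 genes. One linear model over the 4 WM35 groups with eBayes gave hypoxia minus normoxia without IGF1, the same with IGF1, and their difference, each adjusted by the Benjamini-Hochberg method over all genes. Where no probe of a gene was detected on any array of a group, the fold is a bound: the mean of the bright group against the dim group's mean of the higher of the lowest detected signal and the probe's own. On simulated data with 9569 genes the fit recovered 55 of 100 genes changed by 1.5-fold and 91 of 100 changed by 2-fold, with 7 wrong calls. The simulation drew noise independently per gene and array and left most genes unchanged. It held no brightness gap, shared axis of spread or normalization step, so these counts do not give the error rate on the real arrays.

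Named genes are the 15 largest rises and falls among called genes with separate arrays, and members of gene lists. The lists, the rule and the comparison were chosen with earlier results of these data known. Replicate letters did not pair the arrays: deviations from the group means correlated between hypoxia and normoxia at -0.241 for letter A, 0.085 for B and -0.28 for C. Promoter sequences are from RefSeq. Alternatives covered background correction, detection filter, probe choice, normalization, a fold minimum, the replicate letter as a block and leaving out arrays. The Mel-624 arrays with siRNAs against the IGF1 receptor entered only the normalization and the fit of that line.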

Additional observations from a re-analysis of the deposited data

Results flagged for a closer look

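In WM35 the oxygen response differed by test between cells with and without IGF1 in 5 genes, given as the log2 change with IGF1 minus that without: SPRY1 at -1.43, SNHG7 at -1.21, REEP4 at -1.21 and FST at 0.85 (limma, adjusted p = 0.0261 for each), and P2RY11 at -0.95 (adjusted p = 0.0289). For REEP4 and FST the change had opposite signs in the 2 settings and was called in both: REEP4 changed by -0.63 with IGF1 and 0.58 without, and FST by 0.31 with IGF1 and -0.54 without. REEP4 had 6.18, 6.04 and 6.20 in hypoxia with IGF1, against 6.68, 6.74 and 6.90 in normoxia with IGF1. Without IGF1 it had 7.28, 6.81 and 7.17 in hypoxia, against 6.53, 6.42 and 6.58 in normoxia. FST had 8.16, 8.18 and 8.06 in hypoxia with IGF1 and 7.80, 7.84 and 7.83 in normoxia with IGF1, and 8.20, 8.08 and 8.15 in hypoxia without IGF1 and 8.71, 8.58 and 8.77 in normoxia without IGF1. SNHG7 stood out through its hypoxia arrays with IGF1, at 9.98, 9.76 and 9.88, against 11.05, 10.79 and 11.05 in normoxia with IGF1. P2RY11 had 8.99, 8.99 and 9.05 in hypoxia without IGF1, and every other WM35 array lay between 7.84 and 8.23.

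PLK2 was not detected on any WM35 hypoxia array and was at least 2.16-fold lower there than in normoxia, whereas it was higher in hypoxia in Mel-624 siControl cells, at 1.14 on the log2 scale, with every hypoxia array on the opposite side of normoxia in the 2 lines. The difference between the lines was not tested.

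Probes without a single gene name also carried signal that no gene-level comparison used. Of 4638 such probes detected in WM35, 516 were called (11.1%), 285 higher in hypoxia and 231 lower.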

How the results depend on the processing

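The 1981 calls of hypoxia against normoxia without IGF1 numbered 1677 to 1985 under other background correction, detection filters, probe averaging, the deposited normalized values, a fit of only the 6 arrays and the replicate block (1906 with the block, 911 up and 995 down, over arrays that share only a letter). Leaving out single arrays gave 1372 to 2022, and leaving out normoxia array C with hypoxia array A gave 1338. Asking for at least a 1.5-fold change left 738 (7.71%), 422 higher and 316 lower, by the construction of that rule. With no normalization between arrays, chosen after seeing the data, 5584 genes were called, 278 higher and 5306 lower, at a median of -0.40 over all genes, so counts of rises and falls hold only relative to the overall signal. Aligning array medians, also chosen after seeing the data, gave 2159. Of 159 called genes named with values, 128 kept an adjusted p below 0.05 in each setting run for them, and 0 reversed. The setting with no normalization lost more of the 159 genes than any other setting. Among these were the rises of VEGFC (adjusted p = 0.494), SCD (0.205), PLIN2 (0.377), LPIN1 (0.802) and PYGL (0.677). SIAH2 (0.716), CITED2 (0.206), MNT (0.111) and MXD4 (0.432) were also lost there. Averaging probes lost CLOCK (adjusted p = 0.561) and MPC1 (0.114), the deposited values lost ICAM1 (0.123), KDM3A (0.0576), MCAM (0.121) and FGF2 (0.0996), and leaving out normoxia array C with hypoxia array A lost DLAT, GYG1, MCM7, PDHX, PER2, FGF2 and EGLN1. LDHA, uncalled, passed with array medians aligned (adjusted p = 0.0184). The 5 genes whose response differed with IGF1 became 8 with the deposited values, 2 with the replicate block, 0 without normoxia array C and hypoxia array A, and 0 to 8 without single arrays. In Mel-624 the 4793 calls numbered 4229 to 4860 (4460 with the deposited values, 4860 with the replicate block). The cause of these movements was not tested. Signal near background limits the folds of genes undetected in a group to bounds.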

Other observations

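Further small gene groups showed values not described so far. Of 9 tested iron and haem genes 2 rose and 0 fell. STEAP3, a ferric reductase of the transferrin cycle, had 8.36, 8.43 and 8.39 in hypoxia, against 7.70, 7.71 and 7.49 in normoxia, with no overlap (0.76 ± 0.10, adjusted p = 0.000258). In Mel-624 it fell, at -1.32 (adjusted p = 1.16e-05). Of 6 tested genes of acid-base and lactate handling 2 rose. CA12, a surface carbonic anhydrase, had 5.48, 5.18 and 5.07 in hypoxia, against 4.47, 4.52 and 4.55 in normoxia (adjusted p = 0.000916). It was detected on 1 hypoxia array and on 0 normoxia arrays. Its signal therefore lies near background, and no lower bound on the size of its rise was obtained.

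Among the cholesterol genes INSIG2 rose by 1.83, as given above, whereas HMGCS1, an early enzyme of the pathway, fell by 0.51 (adjusted p = 0.00794). Among 23 interferon response genes 5 rose and 1 fell, and without hypoxia array A and normoxia array C 1 rose. MCAM, the melanoma cell adhesion molecule, had 4.97, 5.54 and 5.12 in hypoxia, against 6.09, 5.73 and 5.97 in normoxia, a fall on every array (-0.72 ± 0.15, adjusted p = 0.00453). It was detected on 1 of the 3 hypoxia arrays, so the size is a fitted value against signal near background.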
